A study of Mus musculus with 28 samples.

Results

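Type I interferon-stimulated genes are the genes that a cell turns on when interferon alpha or beta reaches it. A set of 39 such genes was listed by name, and 36 of them were measured on the arrays by a probe set assigned to that gene alone, out of 18193 genes measured in all. Isg15, Ifi44 and Phf11b are not analysed here, because no probe set was assigned to them alone. For a gene with several probe sets the brightest over all arrays was used.

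Interferon alpha and beta bind the receptor pair Ifnar1 and Ifnar2, whose kinases Jak1 and Tyk2 switch on a transcription factor complex that holds Stat2 and Irf9. This complex binds a short element in the promoters of its targets, the interferon-stimulated response element. The targets include enzymes that sense or degrade viral RNA, proteins that block viral entry and assembly, the ubiquitin-like modifier Isg15 with its enzymes, and factors such as Irf7 and Usp18 that amplify or end the response. In B cells, as in most cells, a low tonic level of this response is present without infection, and cytosolic DNA or RNA after DNA damage is a known trigger of it.

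The cells were primary B-cell lymphomas from lymph nodes of C57BL/6 mice carrying the Emu-myc transgene, in which an immunoglobulin enhancer drives Myc in the B-cell lineage. They had been transduced with a retrovirus for Bcl2 (MSCVpuro), an inhibitor of apoptosis, selected with puromycin, and grown on gamma-irradiated NIH 3T3 fibroblasts. Each of 14 lymphomas gave 1 untreated culture and 1 culture kept for 5 days in 0.05 µg/ml Adriamycin (ADR), an anthracycline also called doxorubicin that poisons topoisomerase, so that 28 arrays form 14 pairs, and the comparison asks what changes as the treated cells enter senescence. Both groups carry the Myc transgene, the Bcl2 virus and the feeder layer, and the labels name no step that removed feeder or host cells before RNA was extracted. Each lymphoma has its own identifier in the labels, used below as its name.

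All values are log2 levels as deposited, changes are ADR minus untreated within a lymphoma, and a gene is called where limma gives an adjusted p under 0.05 over all 18193 genes. SE is the standard error of the paired fit, and a change of 1 is a 2-fold change. In bulk cultures, more cells of a type and more RNA per cell cannot be told apart. Of the B-cell markers, 4 of 7 measured were lower after ADR and none was higher, with the list mean between 8.92 and 9.95 in untreated and 8.03 and 10.4 in ADR arrays, so the labelled lineage was present in every array. Macrophage markers (9 of 15 higher) and fibroblast markers (13 of 14 higher) rose, where 15.3% of all genes were higher and 13.4% lower. T and NK cell markers (0 of 7 called by limma, and 1 at an unadjusted p under 0.05) stayed between 4.41 and 4.87 in list mean. The ADR array of lymphoma 1570 stood apart in the 3' minus 5' signal of Gapdh, at 0.92. The ADR array of lymphoma 6054, whose mean member change was 0.33, followed at 0.38, and the part of RNA quality in the member changes was not tested.

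The promoters of some of these genes hold a match to the response element. The motif GAAA, then any 2 bases, then GAAA, the core of the response element, was searched on both strands in the 300 bases around each gene's start (250 before and 50 after) in RefSeq's GRCm38.p6 promoters. It occurred in 11 of the 31 listed genes that have a promoter in that table (35.5%), against 3.99% of 27025 genes. The 60-base windows below come from 4 genes that were called higher after ADR (Ifit1, Oas1a, Rsad2 and Stat2) and from Bst2, which was not. Each is printed 5′ to 3′ on the gene's own strand, with every match in capitals; overlapping matches form a longer capital run, and a match on the opposite strand reads TTTC, any 2 bases, TTTC.
Ifit1 (chr19:34640779-34640838, plus strand): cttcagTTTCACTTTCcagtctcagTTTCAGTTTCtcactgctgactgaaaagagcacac
Oas1a (chr5:120907526-120907585, minus strand): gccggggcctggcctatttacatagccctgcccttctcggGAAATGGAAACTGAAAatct
Rsad2 (chr12:26456538-26456597, minus strand): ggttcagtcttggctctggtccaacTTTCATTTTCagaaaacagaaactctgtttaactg
Stat2 (chr10:128270251-128270310, plus strand): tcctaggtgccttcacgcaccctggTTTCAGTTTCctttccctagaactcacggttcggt
Bst2 (chr8:71537562-71537621, minus strand): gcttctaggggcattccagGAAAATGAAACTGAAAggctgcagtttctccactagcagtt
Ifit1, Oas1a and Bst2 thus each hold more than 1 match, separate in Ifit1 and overlapping in the other two. Of the 9 measured members with the motif, 7 were called higher, with a median change of 0.77, and of the 19 measured members without it 11 were called higher, with a median change of 0.59. A match is a description of these letters and not evidence of binding.

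After ADR, 25 of the 36 interferon-stimulated genes were higher and 0 were lower by limma, against 15.3% higher and 13.4% lower among all genes. None was lower at an unadjusted p under 0.05 either. The median change of the 36 was 0.69, where that of all genes was -0.00107, and 35 of 36 had a change above 0. At least 2-fold rises were seen in 13 genes, led by Ifit1, Rtp4, Usp18 and Oasl2, each of which rose by more than 2 on the log2 scale. Yet by the probe sets used, Ifit1 and Adar were the 2 members higher in all 14 lymphomas, and 11 members were not called. For Rsad2, the probe set used was higher in 12 lymphomas and the other probe sets in all 14.

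**Figure D1:**
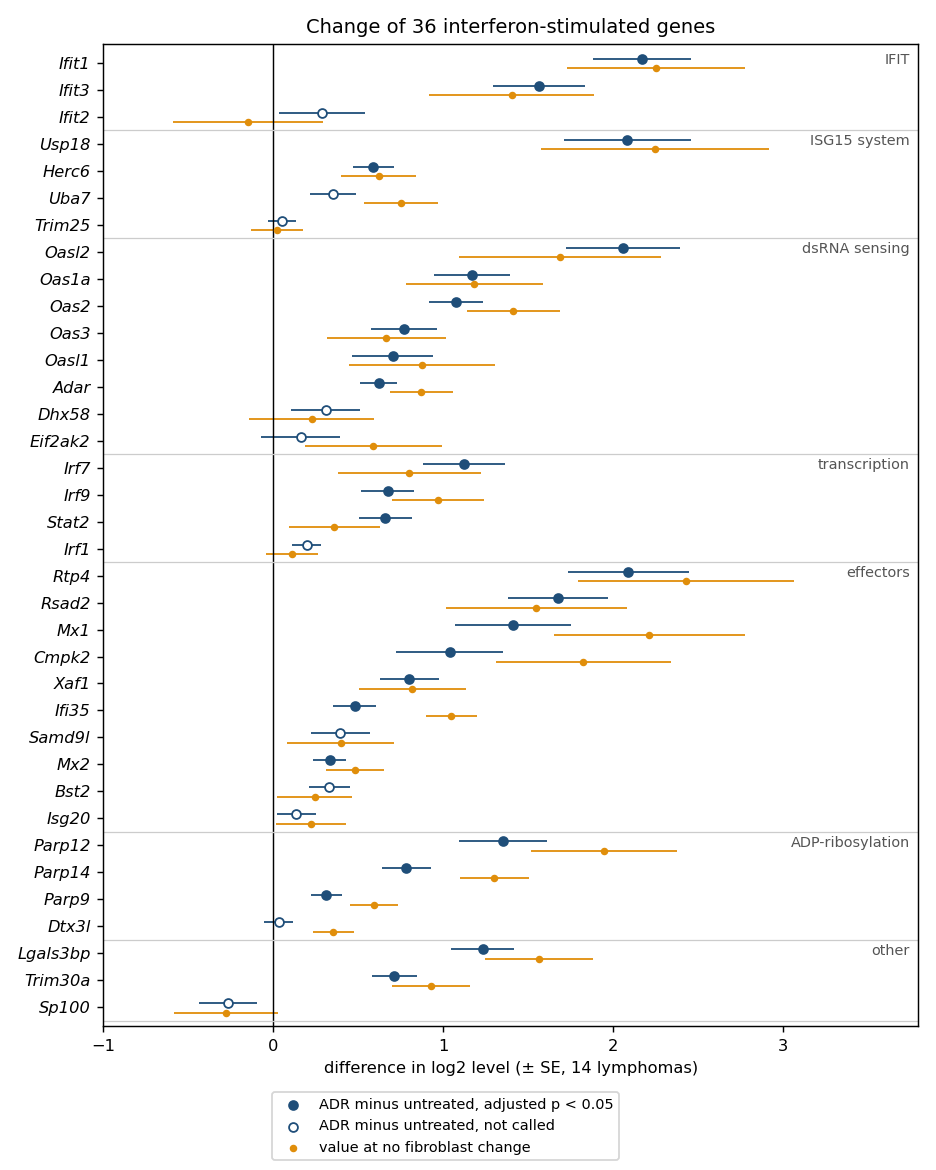
Change of each of the 36 measured interferon-stimulated genes, ADR minus untreated, on the log2 scale (horizontal axis; points are means over 14 lymphomas, bars ± SE), grouped by role. Blue points are the paired fit, filled where called and open where not; orange points are the value fitted at no change of the fibroblast markers. Ifit1, Usp18, Oasl2 and Rtp4 lie farthest right, and Sp100 is the one blue point left of 0.

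The IFIT proteins bind viral RNA that lacks the cap modifications of host messenger RNA. Ifit1 ranged from 2.73 through a median of 3.41 to 6.44 in untreated arrays and from 3.39 through 6.01 to 8.78 in ADR arrays. The groups overlapped, with 6 ADR arrays above the highest untreated array (lymphoma 403), and the largest rise was in lymphoma 3769. The change was 2.17 ± 0.29 (adjusted p = 4.61e-05), from 0.34 in 403 to 5.05 in 3769. Ifit3 rose by 1.56 ± 0.27 and was higher in 12 of 14. Ifit2 behaved otherwise: it ranged from 5.38 through 6.76 to 8.22 untreated and from 5.15 through 6.73 to 9.25 after ADR, with nearly coinciding medians. Its change of 0.29 ± 0.25 was not called (adjusted p = 0.457), and it was higher in 9 of 14, from -1.57 in lymphoma 2949 to 1.77 in 3769.

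Among the genes of the Isg15 modification system, 2 of 4 measured members were higher. Usp18 removes Isg15 from proteins and also blocks signalling at Ifnar2. It ranged from 3.76 through 5.33 to 9.25 in untreated and from 4.66 through 7.96 to 9.71 in ADR arrays. Lymphoma 403 was the highest untreated array and fell, as did 2949, while the other 12 rose. The change was 2.09 ± 0.37 (adjusted p = 5.29e-04). Herc6, the mouse ligase that attaches Isg15, rose by 0.59 ± 0.12. Uba7, the activating enzyme, changed by 0.35 ± 0.14 without a call (adjusted p = 0.0685). Trim25, a ubiquitin ligase that activates the RNA sensor RIG-I, ranged from 9.40 through 9.91 to 10.8 untreated and from 9.15 through 10.1 to 10.6 after ADR. Its groups overlapped fully, with no ADR array above the highest untreated one, and the change was 0.05 ± 0.08 (adjusted p = 0.702).

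Sensors and enzymes that act on long RNA duplexes were higher in 6 of 8 cases. The oligoadenylate synthetases, which activate RNase L, and their relatives all rose: Oas1a by 1.17 ± 0.22, Oas2 by 1.08 ± 0.16, Oas3 by 0.77 ± 0.19, Oasl1 by 0.70 ± 0.24 and Oasl2 by 2.06 ± 0.34. The call of Oasl1 (adjusted p = 0.0372) was lost when any 1 of 8 lymphomas was left out (2581, 3594, 3769, 5043, 5560, 7050, 9583 or 9584; adjusted p from 0.0590 to 0.0783). Oasl2, which carries a synthetase-like fold and ubiquitin-like repeats, ranged from 3.41 through 4.79 to 7.23 untreated and from 4.24 through 7.14 to 9.29 after ADR. In 7 lymphomas the ADR array was above every untreated array, and 13 of 14 rose, the exception being 2949 (adjusted p = 2.49e-04). Whether these probe sets also read other copies of the Oas family was not tested. Adar, which edits adenosine to inosine in RNA duplexes, was higher in every lymphoma by the probe set used. It ranged from 8.06 through 8.42 to 8.76 untreated and from 8.43 through 9.04 to 9.72 after ADR, so that 10 ADR arrays exceeded the highest untreated one. The change was 0.62 ± 0.11 (adjusted p = 5.07e-04), from 0.15 in 9583 to 1.51 in 9584. The other Adar probe sets read 0.06, higher in 8 lymphomas, and 0.42, higher in 11. The kinase gene Eif2ak2 (PKR), which halts translation on sensing such RNA, ranged from 5.82 through 6.98 to 7.82 untreated and from 5.50 through 7.45 to 8.10 after ADR. It changed by 0.16 ± 0.23 (adjusted p = 0.673), higher in 9 lymphomas and lowest in 403, at -1.87. Dhx58 (LGP2), a regulator of RNA sensing, changed by 0.31 ± 0.20 (adjusted p = 0.292).

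Of the transcription factors, 3 of 4 were higher. Irf7, the factor that sustains interferon alpha production, ranged from 5.16 through 5.97 to 8.14 untreated and from 6.08 through 6.78 to 9.96 after ADR. In 4 lymphomas the ADR array exceeded the highest untreated one, and the rise reached 3.16 in 3769. The change was 1.12 ± 0.24 (adjusted p = 0.00209), with 13 of 14 higher and 403 lower. Stat2 and Irf9, partners in the interferon-activated complex, rose by 0.66 ± 0.16 and 0.67 ± 0.16. Irf1, which interferon gamma induces more strongly than interferon alpha, ranged from 7.51 through 8.0 to 8.86 untreated and from 7.51 through 8.42 to 8.98 after ADR. Its groups overlapped, and the change of 0.20 ± 0.09 was not called (adjusted p = 0.0965).

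**Figure D2:**
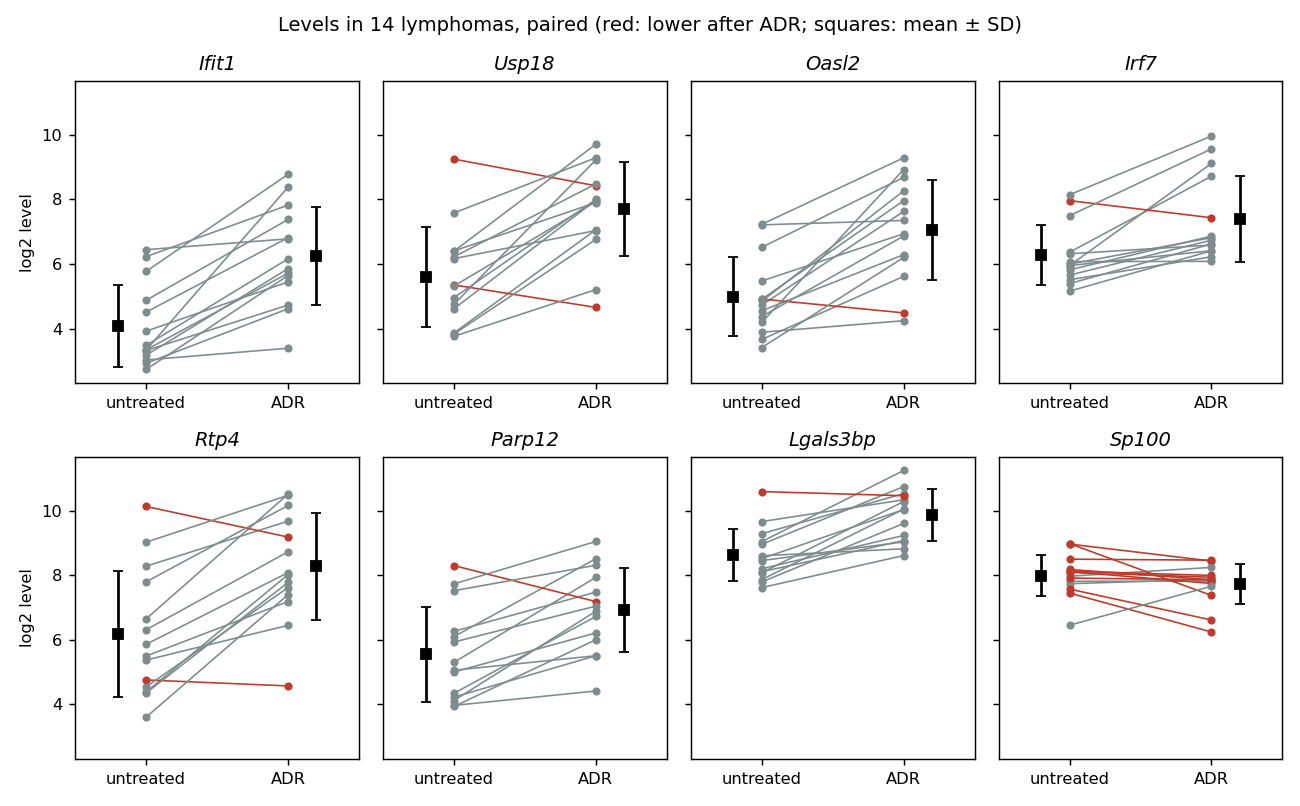
Log2 level (vertical axis) of the member with the largest change in each of the 7 role groups, and of Sp100, in untreated and ADR arrays; each line is 1 of 14 lymphomas, red where the ADR array was lower, and squares with bars are means ± SD. For Usp18 the falling lines are lymphomas 403, which starts at 9.25, and 2949, whose ADR array is at 4.66.

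Genes grouped as direct antiviral effectors were higher in 7 of 10 cases. Rtp4, a receptor chaperone that also binds and inhibits the RNA of some viruses, had the widest untreated spread of the set, with an SD of 1.96. It ranged from 3.60 through 5.68 to 10.1 untreated and from 4.57 through 8.05 to 10.5 after ADR. Lymphoma 403 was again the highest untreated array and fell by 0.95, and 12 of 14 rose (2.09 ± 0.36, adjusted p = 3.59e-04). Rsad2 (viperin), which makes a chain-terminating nucleotide, rose by 1.68 ± 0.30, and its genomic neighbour Cmpk2, a nucleotide kinase that supplies viperin, by 1.04 ± 0.32. The other Cmpk2 probe set read a change of 0.20, and with the mean of both the gene was not called (0.62, adjusted p = 0.0818). Mx1 and Mx2, genes of the dynamin-like GTPase family, rose by 1.41 ± 0.34 and 0.33 ± 0.10. Xaf1, a pro-apoptotic factor, rose by 0.80 ± 0.17 and Ifi35 by 0.48 ± 0.13. Bst2 (tetherin), which holds budding virions at the cell surface and whose promoter window is printed above, changed by 0.33 ± 0.12 with an adjusted p of 0.0530. Samd9l, which restrains translation, changed by 0.40 ± 0.17 (adjusted p = 0.107). Isg20, an exonuclease that degrades RNA and that plasma cells also express, ranged from 6.44 through 8.32 to 9.51 untreated and from 7.52 through 8.14 to 9.73 after ADR. It was higher in 8 lymphomas, and its change was 0.14 ± 0.11 (adjusted p = 0.433).

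ADP-ribosylating PARP enzymes were higher in 3 of 3 cases, and their partner Dtx3l was not called. Parp12, which inhibits translation of viral RNA, ranged from 3.93 through 5.18 to 8.30 untreated and from 4.41 through 6.96 to 9.04 after ADR. It rose in every lymphoma but 403, by 1.35 ± 0.26 over all 14 (adjusted p = 8.88e-04). Parp14 rose by 0.79 ± 0.14 and Parp9 by 0.31 ± 0.09. Dtx3l, the ubiquitin ligase that works as a dimer with Parp9, ranged from 8.18 through 8.93 to 9.34 untreated and from 8.18 through 8.81 to 9.74 after ADR. It was higher in 7 of 14, and its change was 0.03 ± 0.09 (adjusted p = 0.830).

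In the remaining group, Lgals3bp and Trim30a were higher and Sp100 was not called. Lgals3bp, a secreted galectin-binding glycoprotein, ranged from 7.61 through 8.48 to 10.6 untreated and from 8.61 through 10.0 to 11.2 after ADR. It rose in every lymphoma but 9584, which had the highest untreated value (1.23 ± 0.18, adjusted p = 1.20e-04). Trim30a, a regulator of innate signalling, rose by 0.71 ± 0.13, with 9 ADR arrays above the highest untreated one. Sp100, a scaffold of PML nuclear bodies, ranged from 6.45 through 8.03 to 8.98 untreated and from 6.24 through 7.86 to 8.46 after ADR. Its change of -0.27 ± 0.17 was the one below 0 in the set and was not called (adjusted p = 0.275). The direction depended on the probe set: the other Sp100 probe set, which varied more, read 0.45 (adjusted p = 0.0441).

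The mean change of the 36 genes was above 0 in 12 lymphomas, from 0.33 in 6054 to 1.80 in 3769, and below 0 in 403 (-0.53) and 2949 (-0.09). In 1570 all 36 genes were higher, in 3594 and 7050 34 genes were, and in 403 only 8 were. The share of all genes that were higher within each lymphoma was not counted. The ADR array of 1570 is the one that stood apart in the 3' minus 5' signal of Gapdh, at 0.92. The lymphomas with a mean below 0 differed from each other in their starting level. Lymphoma 403 had the highest untreated mean of all (8.39) and went to 7.85, while 2949 went from 6.70 to 6.61, the lowest ADR mean. Lymphomas 9584 and 5560 also started high, at 8.02 and 7.82, and still rose by 1.29 and 0.82.

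**Figure D3:**
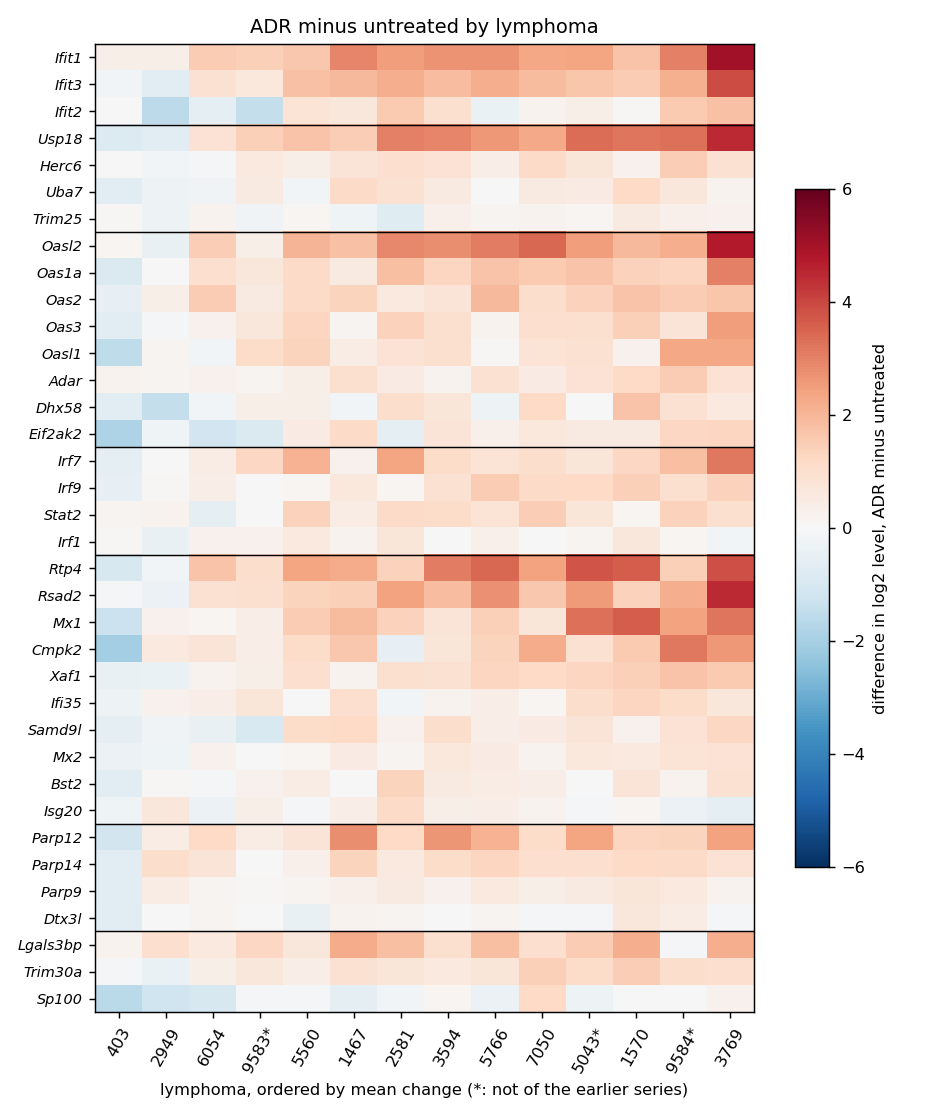
Change of each gene (rows, grouped by role as in the text) in each lymphoma (columns, ordered by mean change), with colour for the difference in log2 level, ADR minus untreated. The 403 column is mostly blue and the 3769 column darkest red, where Ifit1 rose by 5.05; Isg20 and Irf1 stay pale across most columns.

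The changes of the members moved together across lymphomas. Over the 630 pairs of members, the correlation of their changes averaged 0.49 with a median of 0.54, and 93.7% of pairs were above 0, where pairs of all 18193 genes averaged 0.00512. These correlations are over 14 lymphomas, and the values share arrays. Usp18 was closest to the rest, at r = 0.95 with the mean of the other members, followed by Ifit3 (0.92), Xaf1 (0.91) and Oas1a (0.90). Farthest were Isg20 (-0.14), Irf1 (0.17) and Trim25 (0.31). A gene could follow the lymphoma pattern without a higher mean: Eif2ak2, not called, stood at 0.83 and Sp100 at 0.75. The untreated levels correlated among members at a mean of 0.40 and the ADR levels at 0.53.

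Outside the list, the 10 genes whose change was most like the mean member change over the 14 lymphomas had r from 0.84 to 0.87. They were picked as the highest r among all genes outside the list. With so many genes and only 14 lymphomas some high r can arise by chance, and these r were not tested. Trim30d (0.87), Phf11d (0.86) and Ifi213 (0.85) belong to gene families that hold interferon-induced members, and changed by 1.08 ± 0.22, 0.80 ± 0.21 and 0.80 ± 0.33, of which Ifi213 was not called (adjusted p = 0.0891). The others were Trpv2, 4921507G05Rik, Etv3, Jam3, Slc37a2, Tpt1 and Capzb. Of these, Slc37a2 (1.30 ± 0.18), Trpv2 (0.63 ± 0.10), Etv3 (0.47 ± 0.12) and Capzb (0.28 ± 0.06) were higher, while 4921507G05Rik (-0.14 ± 0.05, adjusted p = 0.0596), Jam3 (-0.14 ± 0.06, adjusted p = 0.119) and Tpt1 (0.05 ± 0.04, adjusted p = 0.365) were not called.

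**Figure D4:**
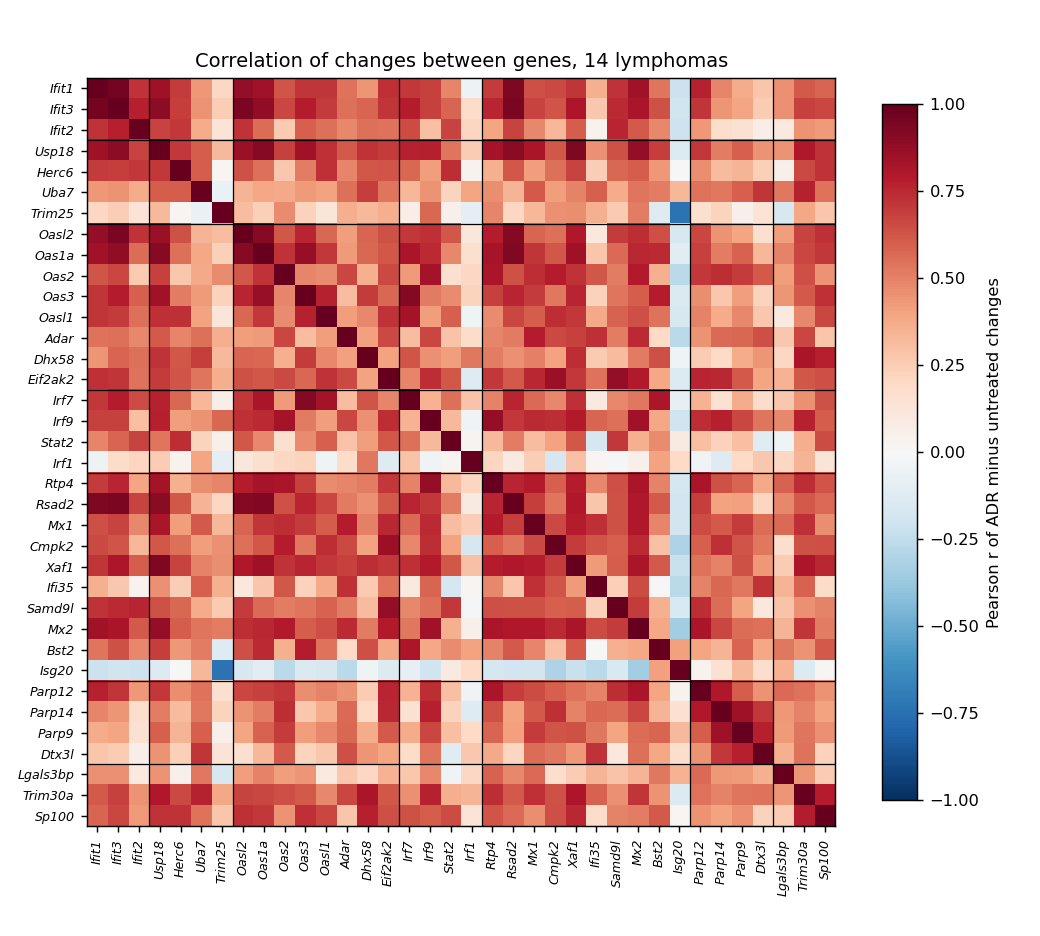
Pearson correlation over 14 lymphomas between the ADR minus untreated changes of each pair of the 36 genes (both axes, grouped by role), from blue at -1 to red at 1. Most cells are red, and the Isg20, Irf1 and Trim25 rows stay pale or blue.

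Of 10 measured interferon genes, limma called 0 in either direction, with 1 lower and 0 higher at an unadjusted p under 0.05. Changes lay between -0.20 (Ifna5, adjusted p = 0.0551) and 0.09 (Ifna2). Ifnb1, usually the first interferon induced, was at 4.24 untreated and 4.23 after ADR, and its highest array reached 4.83. Such low values on this array have compressed changes, and the alpha genes are near-identical copies whose probe sets may read one another.

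Of the interferon receptor and kinase genes, 3 of 10 were higher and 0 lower, where 15.3% of all genes were higher and 13.4% lower. The changes of Ifnar1 (0.25 ± 0.12) and Ifnar2 (0.18 ± 0.19) were not called, while Jak1 (0.39 ± 0.14) and the receptor chains Ifngr2 (0.81 ± 0.14) and Il10rb (0.99 ± 0.11) rose. Genes that sense nucleic acids or relay the signal to interferon were higher in 11 of 18 cases and lower in 0. Ifi204, a DNA sensor of the p200 family, rose by 2.14 ± 0.23 and the Z-nucleic acid sensor Zbp1 by 1.51 ± 0.19, each in all 14 lymphomas. The kinase gene Ikbke rose by 1.16 ± 0.24, the endosomal RNA receptor Tlr7 by 1.04 ± 0.27, and the cytosolic RNA sensors Ifih1 and Rigi by 0.79 ± 0.23 and 0.61 ± 0.12. Ticam1 (0.40 ± 0.08), Myd88 (0.55 ± 0.12), Tlr3 (0.71 ± 0.14), Tbk1 (0.29 ± 0.09) and Irf5 (0.44 ± 0.10) also rose. The DNA sensing pair Cgas (-0.05 ± 0.13) and Sting1 (-0.20 ± 0.12) was not called.

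Genes that restrain the response were mixed, with 2 of 9 higher and 4 lower, against 15.3% and 13.4% of all genes. The feedback inhibitors Socs1 and Socs3 rose by 0.49 ± 0.10 and 0.60 ± 0.18. The phosphatase gene Ptpn2 was lower (-0.35 ± 0.07). All 3 subunits of RNase H2, which removes RNA from DNA and whose loss in people causes an interferon disease, were lower: Rnaseh2a (-0.90 ± 0.09, in 14 of 14 lymphomas), Rnaseh2b (-0.76 ± 0.13) and Rnaseh2c (-0.56 ± 0.11). Of 12 genes listed as responsive to interferon gamma, 2 were higher, Gbp2 (1.22 ± 0.27) and Cd274 (1.31 ± 0.22). Another 2 were lower, the immunoproteasome subunits Psmb8 (-0.30 ± 0.08) and Psmb9 (-0.38 ± 0.12). These counts lie near the shares of all genes, 15.3% higher and 13.4% lower. The chemokine gene Cxcl9, a classical gamma target, was at 3.60 in both groups, a low value at which changes are compressed. Cxcl10, also among the 12, is induced by both interferon types and changed by 0.51 ± 0.27 (adjusted p = 0.176).

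Macrophage RNA rose in the same cultures. Adgre1, which encodes a surface receptor used to mark macrophages, was higher in all 14 lymphomas by 2.21 ± 0.26, from 0.71 in 403 to 3.74 in 2581. Of the 15 macrophage markers 9 were higher and 0 lower, and the list mean ranged from 5.05 to 7.99 in untreated and from 5.93 to 8.83 in ADR arrays. The lowest markers were Cd163 at 2.83 and 2.87 and Mertk at 3.47 and 3.71 (untreated and ADR means). Markers of plasmacytoid dendritic cells, the main interferon alpha producers, were called in 1 of 5 cases, where Cox6a2 was lower (-0.87 ± 0.31), and Siglech was at 5.23 and 5.25. The part of these cells in the member changes was not tested beyond the relations below.

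Across the 14 lymphomas, the change of a member was compared with the change of Adgre1. By limma 0 of 36 members had a called positive slope, against 0% of all genes, and 8 had one at an unadjusted p under 0.05 (22.2%, against 3.53% of all genes). Correlations were above 0 for 35 of 36 members, with a median of 0.35 against 0.0240 for all genes, and 0.28 without 403 and 7050, whose Adgre1 change was farthest from the median, and 0.54 within the 11 earlier-series lymphomas. The largest was that of Lgals3bp (r = 0.69, permutation p = 0.00775, adjusted p = 0.733 over 18192 genes). For the mean of the 36 genes r was 0.49 and rho 0.25. This r was 0.33 without 403, 0.41 without 403 and 7050, and 0.65 without the 3 largest Adgre1 changes. Within the 11 earlier-series lymphomas it was 0.70. Against the mean change of the macrophage markers, r was 0.55 and rho 0.37. Single lymphomas lay both along and off this relation. Small Adgre1 rises of 0.71 in 403 and 0.93 in 2949 went with member means of -0.53 and -0.09. Larger rises of 3.02 in 3769 and 3.15 in 3594 went with 1.80 and 1.04. Lymphomas 9584 and 7050 had small Adgre1 rises of 1.24 and 0.92 and member means of 1.29 and 1.06, while 9583 had an Adgre1 rise of 3.46 and a member mean of 0.37.

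Fitted at no Adgre1 change, 0 of 36 members were higher, against 0.0495% of all genes, and 0 at an unadjusted p under 0.05. The median member value there was 0.20, and 25 of 36 were above 0, where 46.0% of all genes were. This fit reads beyond the data, since the smallest Adgre1 change was 0.71, and the errors are wide: Ifit1 stood at 0.99 ± 0.62 and Oasl2 at 1.05 ± 0.77. The median turned to -0.0593 within the 11 earlier-series lymphomas and to -0.00211 without lymphoma 9584.

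**Figure D5:**
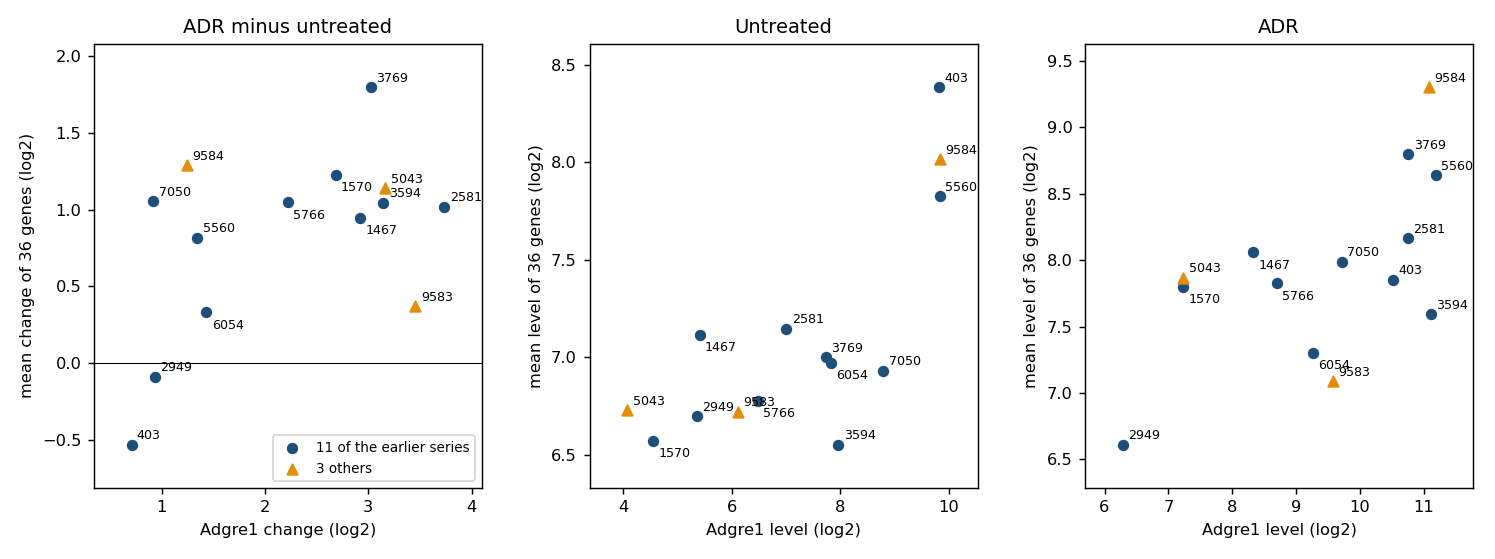
Mean of the 36 genes against Adgre1 in each of 14 lymphomas: mean change against Adgre1 change (left), untreated levels (middle) and ADR levels (right), all log2; circles are the 11 earlier-series lymphomas and triangles the 3 others. In the middle panel lymphomas 403, 5560 and 9584 stand apart at the top right, at 8.39, 7.82 and 8.02, and in the left panel 403 and 2949 lie below 0.

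Untreated cultures already differed in interferon-stimulated genes. Lymphomas 403, 5560 and 9584 had the 3 highest untreated means of the 36 genes and also the 3 highest Adgre1 levels, at 9.81, 9.84 and 9.84. The other 11 lay between 4.07 and 8.80 for Adgre1 and between 6.55 and 7.15 for the member mean, so the relation was read within these 11, a split chosen after the levels were seen. There, 20 of 36 members had a correlation above 0 with the Adgre1 level, the median was 0.07, and 0 were called by permutation, against 0% of all genes, with 3 at an unadjusted p under 0.05 (8.33%, against 7.11% of all genes). Those 3 were Rsad2 (r = 0.85, permutation p = 0.00124 and 0.414 after adjustment; rho = 0.85, permutation p = 0.00174 and 0.522 after adjustment), Parp12 (0.73, adjusted p = 0.654) and Ifit1 (0.62, adjusted p = 0.691). Without lymphomas 5043 and 7050, farthest from the median, Rsad2 stood at r = 0.76. The member mean stood at r = 0.32 against Adgre1 within the 11 and at 0.75 (rho = 0.61) over all 14. Over all 14, which spans the gap between the 2 sets of lymphomas, 31 of 36 members had a correlation above 0, the median was 0.54, and 20 had an unadjusted p under 0.05 (55.6%, against 10.4% of all genes). Of these 2 were called, against 0.181% of all genes: Rsad2 (adjusted p = 0.0227) and Parp12 (adjusted p = 0.0420), neither of which was called within the 11.

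After ADR, the levels of 5 members correlated with the Adgre1 level by permutation (adjusted p under 0.05), against 5.55% of all genes. They were Oasl1 (r = 0.83, permutation p = 2.70e-04, adjusted p = 0.0209), Rsad2 (0.83, adjusted p = 0.0199), Parp12 (0.83, adjusted p = 0.0190), Ifit1 (0.82, adjusted p = 0.0196) and Rtp4 (0.74, adjusted p = 0.0459). Their rho values were 0.89, 0.82, 0.88, 0.83 and 0.65. Other members went the other way without a call, such as Isg20 (r = -0.58, adjusted p = 0.150). Without lymphomas 2949 and 1570, farthest from the median, 0 members were called and Rsad2 stood at 0.69. Of the 5 members, 1 kept its call without 2949 alone and 2 without 5560 alone, while all 5 did without 1570 alone.

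Fibroblast markers, which the feeder cells express, were examined in the same way. The fibroblast list mean ranged from 4.26 to 5.27 in untreated and from 4.89 to 9.05 in ADR arrays. Its change correlated with the mean member change at r = -0.16, and at 0.36 without lymphomas 403 and 5560, which had the largest fibroblast rises. Fitted at no fibroblast change, 15 of 36 members were higher, against 5.74% of all genes, and the median was 0.85. Among them were Ifit1 (2.25 ± 0.52), Usp18 (2.25 ± 0.67), Rtp4 (2.43 ± 0.64), Mx1 (2.22 ± 0.56), Parp12 (1.95 ± 0.43) and Ifi35 (1.05 ± 0.15). Uba7, not called over all pairs, was called there (0.75 ± 0.22, adjusted p = 0.0376). In this fit 11 members lost their call, among them Oasl2 (1.69 ± 0.60, adjusted p = 0.0848) and Irf7 (0.80 ± 0.42, adjusted p = 0.272). The others were Ifit3, Oasl1, Oas1a, Oas3, Stat2, Mx2, Rsad2, Xaf1 and Herc6. Their errors were wider than over all pairs. Values were lower for some, such as Irf7 (from 1.12) and Stat2 (0.36, from 0.66), and higher for others, such as Oasl1 (0.88, from 0.70).

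The 11 lymphomas that the labels describe as reanalysed from an earlier series and the 3 others gave median member changes of 0.65 and 0.86. No member differed between both sets by limma (0 of 36, against 0.0055% of all genes), with 1 at an unadjusted p under 0.05, and 3 lymphomas give such a test little precision. Within the 11, 20 members were higher and 0 lower, in a separate fit of those pairs whose share over all genes was not counted.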

How the data were processed

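RNA of 28 cultures was hybridised to Affymetrix arrays of 45101 probe sets. The deposited values are log2 expression values, made by the authors with RMA and Partek 6.5, per the submitters' processing notes; RMA subtracts background, equalizes the arrays and merges the probes of a set, which can compress changes of dim genes. The arrays' own genome build is "not given in the sources used here". All value columns matched a sample.

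Probe sets with 1 gene in the platform annotation (34945) were kept, and the brightest per gene was used. Those with several genes (932), none (9160) and controls (64) were left out. No filter on low values was applied. The paired model was limma's (version 3.58.1, R version 4.3.3; lmFit, eBayes), with lymphoma as a block and Benjamini-Hochberg adjustment. Covariate fits used the 14 changes, and correlations used 100000 permutations, two-sided. The number of arrays limits precision. The labels name separate lymphomas, so replicates are separate tumours.

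The pairing comes from the labels. Deviations from group means correlated at 0.27 to 0.61 within a lymphoma (median 0.48), against a median of -0.08 between lymphomas. The labelled partner was the best match for 12 lymphomas but not for the rest, so these values do not settle the pairing of every lymphoma.

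The members and lists were chosen with earlier results of these data known. The rule for names took the largest and smallest change in each role group, opposing members, called genes of the pathway lists and the 10 genes most like the member mean; remaining members are given by their change. The split of untreated lymphomas by Adgre1, the level correlations and their alternatives were chosen after seeing the data. The other alternatives were replicate blocks, probe set rules, a filter on dim genes, centring and left-out lymphomas. The fits were tested on simulated data. Plots used matplotlib 3.10.9 and Python 3.11.15.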

Additional observations from a re-analysis of the deposited data

How the results depend on the processing

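The count of members higher after ADR was 25. With no replicate block it was 18 and with a random replicate block 25. With no replicate block the 7 that lost the call were Oasl1 (adjusted p = 0.356), Oas3, Irf7, Stat2, Cmpk2, Parp9 and Parp12, and with the random replicate block Oasl1 (adjusted p = 0.170) lost it and Uba7 (adjusted p = 0.0464) gained it. Within the 11 earlier lymphomas the count was 20, without Oasl1, Mx2, Cmpk2, Ifi35 and Parp9. It was 27 with the probe set of the largest variance, 25 with the mean of probe sets, 26 among genes above the median of all probe sets, 25 with centred arrays, 25 without lymphoma 1570 and 24 to 27 leaving out each lymphoma in turn. At no fibroblast change it was 15, against 5.74% of all genes. For the other alternative fits the share over all genes was not counted. No member was lower in any of these fits. The median change lay between 0.63 and 0.77 leaving out each lymphoma. Sp100 reversed to 0.45 with the probe set of the largest variance. The median at no Adgre1 change reversed to -0.0593 within the 11 earlier lymphomas and ranged from -0.00211 to 0.55 leaving out each lymphoma. The median slope on Adgre1 was 0.20, ranged from 0.12 (without lymphoma 403) to 0.29 leaving out each lymphoma, was 0.36 in the 11 earlier lymphomas and went to 0.42 with the macrophage list mean in its place, which changes over a narrower range. Members whose untreated level followed Adgre1 went from 0 in 11 lymphomas to 2 in all 14. For ADR levels the count of 5 went to 0 without lymphomas 2949 and 1570 and ranged from 1 to 7 leaving out each lymphoma. The causes were not tested. Dim signals, as for the interferon genes, limit what changes could be seen.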
